A study of Vitis amurensis with 6 samples.

Results

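The central part of the grapevine chromosomes was examined for open chromatin in leaves of Amur grape (Vitis amurensis), a wild grape known for its cold hardiness. Open sites, called transposase hypersensitive sites (THSs), are stretches where the transposase of ATAC-seq inserted adapters more often than in the surrounding DNA. The THSs of all 6 libraries were merged wherever they shared at least 1 bp, and a merged region was taken as a member when its midpoint lay between 40 and 60% of the length of chromosomes 1 to 19. The farthest THS end on a chromosome served as its length. By this rule 9077 of 44710 merged regions were members, on 85.2 Mb of sequence, and another 30669 regions lay on the remaining 340.8 Mb of these chromosomes. The rule uses position alone. Within 0.5% of the lower limit 195 regions fell inside and 230 outside, and at the upper limit 235 fell inside and 217 outside, so neither limit stands at a gap in the data.

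All libraries came from leaves of wild-type in vitro plants aged 1 month, and each pooled the upper leaves of 5 plants. The 3 control libraries are of plants at 26°C at 0 h, and the 3 cold libraries are of plants moved to 4°C for 2 h. The question is where chromatin opens or closes early in the cold. Since no plants held at 26°C were sampled at 2 h, effects of cold, of time and of the move to an incubator cannot be told apart.

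Plant chromosomes are not uniform along their length. Genes tend to lie on the arms, while the sequence around a centromere is rich in repeats and is packed into compact heterochromatin that a transposase enters poorly. A centromere can lie anywhere along a chromosome, so the middle by length is not the same as the centromere. No gene or centromere annotation was used here, and the members are therefore described by position, presence, width and score. The score is that of the authors' peak caller, taken here as −log10 q. It is not scaled between libraries, so it was turned into a percentile among the THSs of the same library on chromosomes 1 to 19.

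The libraries were not alike. Whole lists held between 13019 and 19537 THSs. Cold replicates 2 and 3 listed THSs as narrow as 111 and 106 bp, whereas no THS of the other 4 lists was below 199 bp, and the narrowest of control replicate 2 was 217 bp. The main values are also given without cold replicates 2 and 3. That leaves cold replicate 1 as the only cold library, so these values give the size of a difference only, without a p. The lists carry no read numbers. Mapped reads per library are stated by the study but were not used here, so the part of depth in the results was not tested.

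THSs were common in the middle of the chromosomes in every library. The middle held 4367, 3827 and 2776 THSs in control replicates 1, 2 and 3, and 2622, 2720 and 2539 in cold replicates 1, 2 and 3. Per Mb of middle sequence this came to 51.3, 44.9 and 32.6 THSs in the control libraries and 30.8, 31.9 and 29.8 in the cold libraries. Every control library lay above every cold library, and the 2 groups were separated by a narrow gap, with control replicate 3 close to the cold libraries. The means were 42.9 ± 9.50 THSs per Mb in control and 30.8 ± 1.06 in cold (SD over 3 libraries each). A two-sided exact permutation test gave p = 0.1, and 3 libraries against 3 allow no smaller value. Adjusted over the 5 measures compared, this exact p was 0.125. With lists of equal length the difference was -3.89 THSs per Mb in place of -12.1 (exact permutation p = 0.2), and with a stricter score threshold it was -3.39 (exact permutation p = 0.4), so under both settings the groups overlapped. Without control replicate 1 it was -7.92, and when all lists were held to 1 common width and gap limit of 217 bp it was -24.8. Outside the middle the densities of the groups overlapped with the lists as deposited, at 34.6, 38.9 and 24.6 THSs per Mb in control and 25.9, 31.3 and 26.7 in cold (exact permutation p = 0.4).

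The length of open chromatin was greater in the control libraries in the middle, and their mean was also the higher one in the rest. THSs covered 23.6, 21.6 and 14.1 kb per Mb in control replicates 1, 2 and 3, and 13.2, 7.38 and 6.34 kb per Mb in the cold libraries. The groups did not overlap (19.7 ± 5.00 and 8.96 ± 3.68 kb per Mb, SD of 3 libraries each, exact permutation p = 0.1 and 0.125 after adjustment). Cold replicate 1, the cold library with ordinary THS widths, lay just under control replicate 3. Without cold replicates 2 and 3 the difference in covered length was -6.58 kb per Mb in place of -10.8, and it was -5.72 with the stricter score threshold and -2.42 when each THS was replaced by a window of 200 bp. In the rest the means were 15.4 kb per Mb in control and 8.12 in cold, and the groups overlapped (exact permutation p = 0.2). The difference in density was -12.1 THSs per Mb with all libraries and also with cold replicate 1 as the only cold library.

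As a share of each library's THSs on chromosomes 1 to 19, the middle held 27.0, 22.4 and 24.9% in control and 22.9, 20.3 and 21.8% in cold. An even spread along the chromosomes would give 20%. All 6 libraries lay above that share, with cold replicate 2 close to it. Here the groups overlapped, since control replicate 2 lay below cold replicate 1 (24.8 ± 2.32% and 21.7 ± 1.28%, SD of 3 libraries each, exact permutation p = 0.2 and 0.2 after adjustment). The difference in share was -1.87 percentage points in place of -3.09 without the 2 cold libraries with narrow THSs, -1.95 without control replicate 1 and -1.36 with the stricter score threshold.

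The middle was more densely occupied than the rest of the chromosomes in 6 of 6 libraries. The difference within a library was 16.7, 6.02 and 7.95 THSs per Mb in control replicates 1, 2 and 3, and 4.86, 0.669 and 3.08 in cold replicates 1, 2 and 3. The mean difference was 6.55 ± 5.56 THSs per Mb (SD, n = 6 libraries). An exact sign-flip permutation test gave p = 0.03125, the smallest that 6 libraries allow, and after adjustment over the 4 measures compared this way it was 0.125 and did not pass. Without cold replicates 2 and 3 the mean difference was 8.88 THSs per Mb, and with the stricter score threshold it was 3.73. The libraries share 1 genome, so this test speaks of libraries and not of chromosomes. The difference was larger in every control library than in any cold library (10.2 ± 5.69 and 2.87 ± 2.104, SD of 3 libraries each, exact permutation p = 0.1 and 0.2 after adjustment). This difference between the groups, -7.35 THSs per Mb, was -1.97 with the stricter score threshold and -4.59 with lists of equal length. In both settings the exact permutation p was 0.2 and the groups overlapped. Without control replicate 1 it was -4.12 (exact permutation p = 0.2), and the remaining control libraries still lay above every cold library. Without cold replicates 2 and 3 it was -5.36. As a ratio of middle to rest the values were 1.48, 1.15 and 1.32 in control and 1.19, 1.02 and 1.12 in cold, and on that scale the groups overlapped (exact permutation p = 0.2).

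Over all chromosomes together, the excess was mainly over the first part of the length. In the first 40% of the length the libraries held 25.1, 33.0 and 19.9 THSs per Mb in control and 21.5, 28.6 and 23.8 in cold. In the last 40% they held 44.0, 44.8 and 29.4 in control and 30.3, 33.9 and 29.7 in cold. The middle exceeded the first part in 6 of 6 libraries, by 11.6 ± 7.97 THSs per Mb (SD, n = 6, exact sign-flip permutation p = 0.03125, adjusted p = 0.0625 over the 2 sides). Against the last part it was higher in 5 of 6 libraries, by 1.53 ± 3.26 THSs per Mb, which was within the spread of the libraries (exact sign-flip permutation p = 0.28125, adjusted p = 0.28125). In cold replicate 2 the middle lay below the last part, at 31.9 and 33.9 THSs per Mb. This split of the chromosomes was chosen after the data were seen. "First" and "last" follow the numbering of the assembly.

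**Figure D1:**
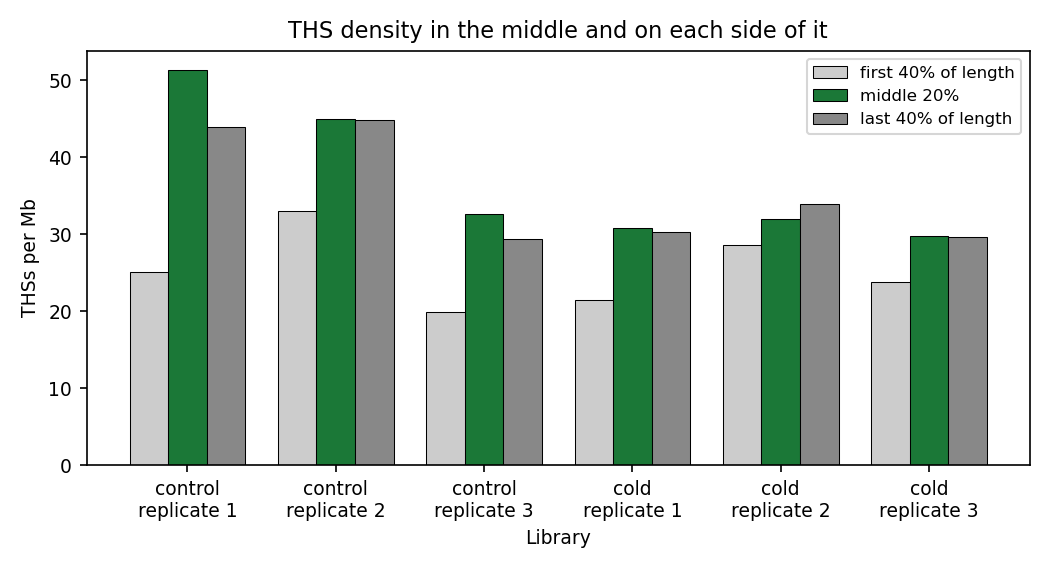
Bars give THSs per Mb (y axis) in each of the 6 libraries (x axis) for the first 40% of chromosome length, the middle 20% and the last 40%, over chromosomes 1 to 19 together. In every library the first part is the lowest bar, while the middle and the last part differ little except in control replicates 1 and 3.

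The profile in steps of 5% of the length showed where density changed. Merged regions fell from 79.99 per Mb in the first step to 68.3 between 15 and 20%, and reached 107.5 between 40 and 45%. The 4 steps of the middle held 107.5, 110.3, 107.7 and 100.6 regions per Mb. The highest step, 111.4 regions per Mb, lay just outside the middle, between 60 and 65%. Beyond it the density stayed between 93.1 and 103.6 regions per Mb. The middle thus lay within a denser stretch that went on to the end of the numbering. Control replicate 1 changed most along the chromosome, from 19.8 THSs per Mb between 10 and 15% to 55.9 between 50 and 55%. Cold replicate 2 changed least on the rise to the middle, from 26.7 to 32.6 over the same steps.

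**Figure D2:**
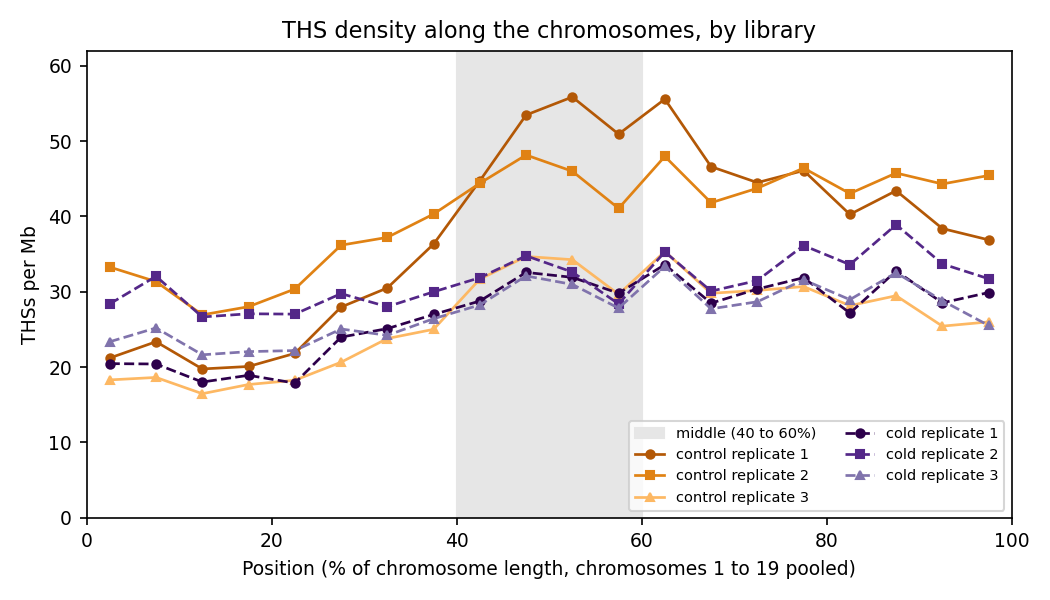
THSs per Mb (y axis) in steps of 5% of chromosome length (x axis), pooled over chromosomes 1 to 19, with 1 line per library and the middle shaded. Control replicate 1 climbs from 19.8 to 55.9 THSs per Mb, and all 6 lines have a local high point between 60 and 65%, just past the shaded middle.

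Chromosomes differed widely. The number of members per chromosome ranged from 254 on chromosome 8 to 634 on chromosomes 5 and 14. Chromosome 16 had the densest middle, with 136 regions per Mb, and chromosome 8 the sparsest, with 56.7. The density of merged regions was higher in the middle than in the rest on 17 of 19 chromosomes, with a median ratio of 1.21. The exceptions were chromosome 8 (56.7 against 84.4 regions per Mb, ratio 0.672) and chromosome 19 (78.5 against 92.8, ratio 0.846). The highest ratio was that of chromosome 6 (115 against 70.2, ratio 1.63). When the first and the last part were taken apart, the middle was denser than both on 9 chromosomes and lay between them on the other 10. The first part was the sparser of the 2 sides on 14 chromosomes and the denser one on the other 5 (chromosomes 7, 8, 14, 15 and 16). On chromosome 8 the density fell along the length, with 126 regions per Mb in the first part, 56.7 in the middle and 42.8 in the last part, and on chromosome 14 it fell from 109.7 to 104.7 and 80.6. The middle was denser than the first part on 17 chromosomes and denser than the last part on 11.

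The 6 libraries gave the same direction on 8 chromosomes. On chromosome 8 every library had fewer THSs per Mb in the middle than in the rest, with ratios of 0.403, 0.686 and 0.714 in control and 0.513, 0.609 and 0.5596 in cold. The groups overlapped there, so the sparse middle of chromosome 8 was found with and without cold. On 7 chromosomes all 6 ratios were above 1. On chromosome 6 they were 2.84, 1.52 and 1.73 in control and 1.87, 1.15 and 1.36 in cold, and on chromosome 7 they were 2.63, 1.35 and 2.18 in control and 1.68, 1.39 and 1.45 in cold. On chromosome 16 they lay between 1.45 and 1.86 in all 6 libraries. The mean ratio was higher in control than in cold on 17 of 19 chromosomes, but every control library lay above every cold library on only 5.

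By library, the middle was the denser part on 17, 15 and 17 chromosomes in control replicates 1, 2 and 3, on 17 in cold replicate 1, and on 9 and 11 in cold replicates 2 and 3. Cold replicate 1 thus matched the control libraries in this count, and the low counts were those of the 2 libraries with narrow THSs. The part of THS width in this pattern was not tested. Chromosomes of 1 library are not replicates, and these counts are a description.

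**Figure D3:**
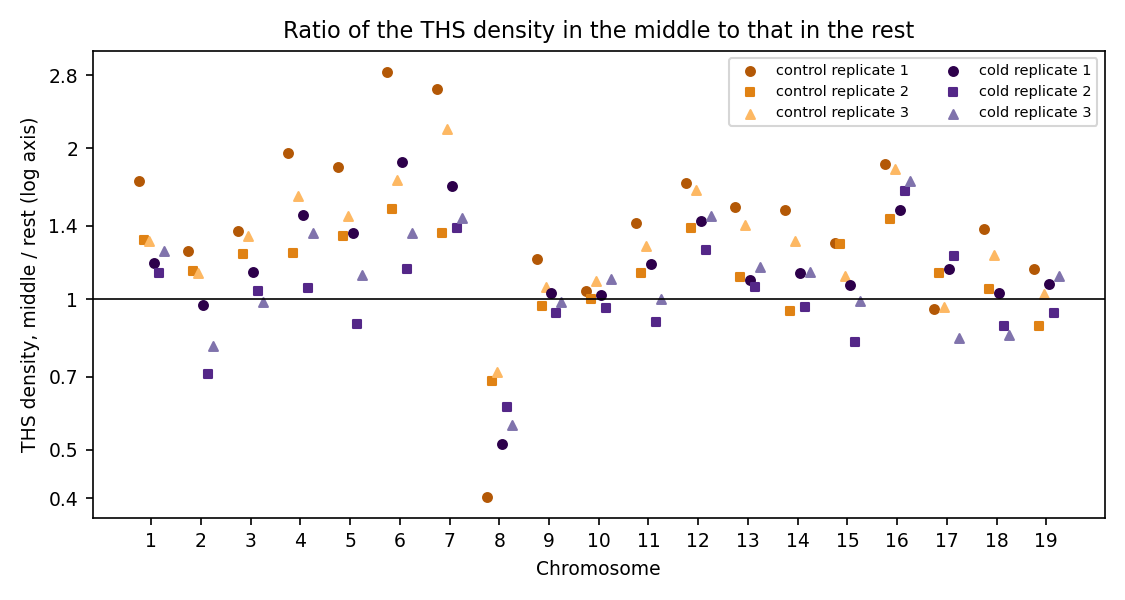
The ratio of THS density in the middle to that in the rest (y axis, log scale) for chromosomes 1 to 19 (x axis), with 1 point per library and a line at 1. All 6 points lie below the line on chromosome 8, and control replicate 1 reaches 2.84 on chromosome 6 and 2.63 on chromosome 7.

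Most members were called in few libraries. Of the 9077 members, 5366 (59.1%) had a THS in 1 library, 40.9% in 2 or more, and 636 (7.01%) in all 6. In the rest of these chromosomes the corresponding shares were 62.5, 37.5 and 7.18%. Per Mb, regions of every degree of sharing were more frequent in the middle than in the rest. The ratio was 1.12 for regions of 1 library, 1.301 for 2, 1.401 for 3, 1.301 for 4, 1.27 for 5 and 1.16 for all 6. The excess over the rest was therefore not limited to regions seen once. Regions of all 6 libraries were also counted in steps of 10% of the length. They numbered 7.49 and 7.44 per Mb in the middle, 4.81 to 5.68 before it and 6.64 to 8.36 after it. Control replicate 1 alone accounted for 1590 of the members called once and control replicate 2 for 1237, while the other 4 libraries contributed 607 to 660 each. Regions held by control replicate 1 alone made up 17.5% of the members and 12.3% of the rest, whereas those of control replicate 2 alone made up 13.6 and 16.2%.

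Sharing between the groups differed by direction. All 3 control libraries had a THS in 1233 members (13.6%, against 13.9% of all merged regions and 12.5% of the rest). All 3 cold libraries had one in 794 members (8.75%, against 9.98% of all merged regions and 9.01% of the rest). Of the 1233 members 51.6% were found in all 3 cold libraries, against 57.5% in the rest of the chromosomes and 60.8% in the outer 10% at both ends. Of the members open in all 3 cold libraries 80.1% were also open in all 3 control libraries, close to the 79.7% of the rest. Both shares count the same 636 members, so the contrast of 51.6 and 80.1% only restates the counts of 1233 and 794. As shares of the length covered by either of 2 lists (Jaccard index), pairs of control libraries overlapped by 0.277 in the middle and 0.287 in the rest, and pairs of a control and a cold library by 0.212 and 0.226. In the middle the index was lower than in the rest for 8 of 9 pairs between groups and for 2 of 3 pairs within each group. Cold replicates 2 and 3 were an exception, with 0.329 in the middle and 0.310 in the rest. The index falls when 2 lists cover unequal lengths, so it is given as a description.

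Few members separated the groups. A THS in all 3 cold libraries and no control library was found in 20 members (0.220%), against 0.183% of all merged regions. The opposite pattern, all 3 control libraries and no cold library, was found in 128 members (1.41%), against 1.04% of all merged regions and 0.923% of the rest of chromosomes 1 to 19. For any one region, the smallest exact p that 3 libraries against 3 allow is 0.1. The cold-only share was thus near that of all merged regions, and it rests on 20 members. Against the rest of chromosomes 1 to 19, where it was 0.179%, the cold-only share was 1.23 times as high. The control-only share was 1.53 times that of the rest. In the outer 10% at both ends the control-only share was 0.619%. The last 40% of the chromosomes had 1.12% and the first 40% had 0.675%. The middle, the last 40% and the first 40% stood in the same order in density, with 106.5, 100.9 and 79.1 regions per Mb. The outer 10% at both ends did not follow it, with 87.3 regions per Mb and the lowest of these shares. With the stricter score threshold the control-only share of the middle was 1.03 times that of the rest, without control replicate 1 it was 1.29 times, and without cold replicates 2 and 3 it was 1.20 times.

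Both counts depended on which libraries were used. The cold-only count was 218 without cold replicate 1, 37 without cold replicate 2 and 46 without cold replicate 3, and the control-only count was 276, 169 and 156. With control replicate 1, 2 or 3 left out, the cold-only count was 37, 26 and 32 and the control-only count 275, 277 and 442. When all lists were held to 1 common width and gap limit of 217 bp, 2 members were cold-only and 185 control-only. Fewer libraries in a group make its pattern easier to meet by construction.

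Regions called in exactly 3 libraries numbered 734 in the middle. The control-only set was the most frequent of the 20 possible sets, and control replicates 1 and 2 with cold replicate 1 came next with 108 members (1.19%, against 1.13% in the rest). Of the 20 sets, 15 had a larger share in the middle than in the rest. None of the 5 that did not included control replicate 1. The highest ratio of middle to rest was 1.69, above the 1.53 of the control-only set. It was reached by control replicates 1 and 3 with cold replicate 2 (33 members). Control replicate 3 with cold replicates 1 and 3 (9 members) had the same ratio. The lowest ratio was that of control replicates 2 and 3 with cold replicate 3, with 5 members (0.0551%, against 0.157% in the rest).

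**Figure D4:**
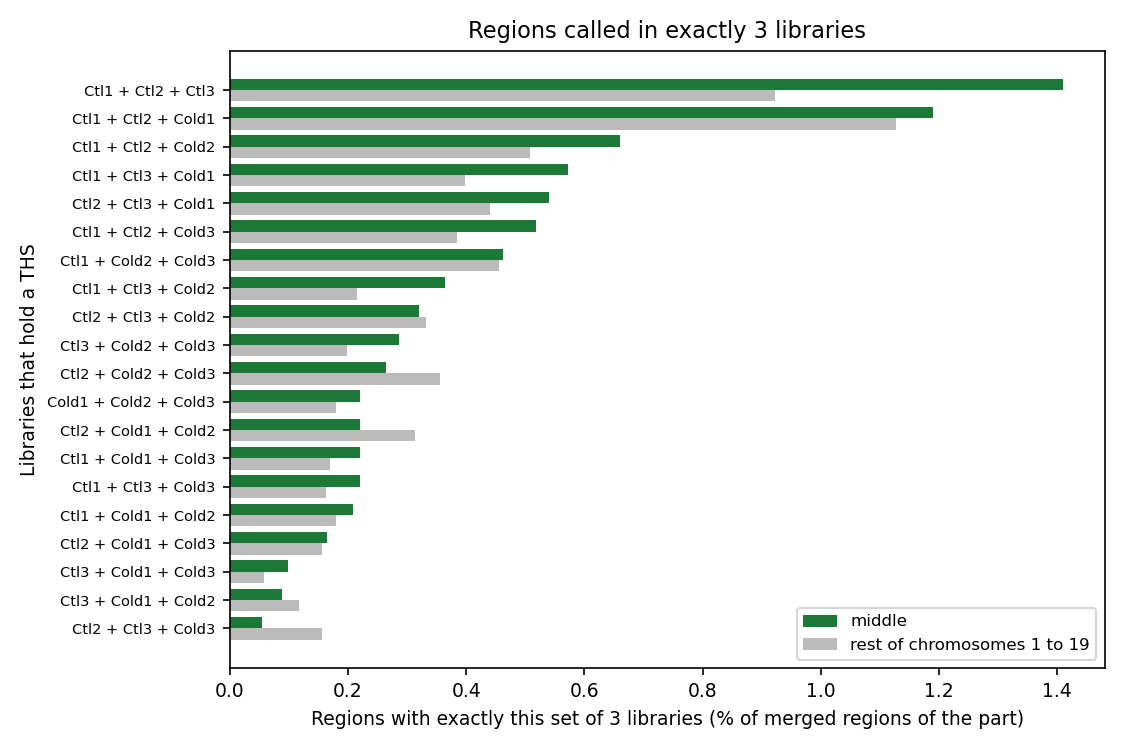
Share of merged regions (x axis, %) held by exactly 3 libraries, for each of the 20 sets of 3 libraries (y axis; Ctl, control replicate; Cold, cold replicate), in the middle and in the rest of chromosomes 1 to 19. The set of the 3 control libraries has the longest bar in the middle, 1.41% against 0.923% in the rest, and the set of the 3 cold libraries has 0.220% against 0.179%.

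The 20 cold-only members lay on 13 chromosomes, with 3 each on chromosomes 12 and 18. They were narrow, with a median width of 262 bp, against 320 bp for the 55 cold-only regions of the rest, and 3 of them were narrower than 217 bp, the narrowest THS listed in control replicate 2. Their lowest score percentile had a median of 71.0, against 37.5 in the rest. For 6 of the 20 (30.0%) a control THS lay within 1000 bp, and for 22 of the 55 in the rest. All coordinates below are on the grape 12X assembly.

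The strongest cold-only member was chr18:12989466-12989673, at 44.2% of the chromosome. It had scores of 170, 140 and 176 in cold replicates 1, 2 and 3. Its THSs were 208, 165 and 156 bp wide, and the nearest control THS lay 9292 bp away. Next came chr17:7518012-7518253, with scores of 67.9, 57.6 and 49.9 and the nearest control THS 6998 bp away. Both members ranked high in all 3 cold libraries, at percentiles of 96.9 to 97.3 for the first and 93.3 to 95.3 for the second.

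A second cold-only member of chromosome 17, chr17:7828507-7828717, had scores of 13.9, 14.3 and 10.2. It lay 1330 bp from a control THS and was 211 bp wide. On chromosome 18, chr18:14741354-14741913 at 50.2% of the length had scores of 10.97, 10.6 and 8.15. Its THS was 560 bp wide in cold replicate 1 but 166 and 161 bp in cold replicates 2 and 3, and a control THS lay 748 bp away. Both regions ranked highest in cold replicate 1, at percentiles of 86.7 and 83.7, and lowest in cold replicate 3, at 77.9 and 73.0.

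Other cold-only members ranked lowest in cold replicate 1. The member chr7:10922060-10922341 had scores of 6.10 in cold replicate 1 and 27.4 and 26.5 in cold replicates 2 and 3, which are percentiles of 71.9, 89.3 and 89.0. The member chr13:10181601-10181824 had 10.2, 29.6 and 23.1, and its nearest control THS, 26243 bp away, was the farthest among the named cold-only members. The member chr14:12258884-12259225 had 8.90, 22.7 and 16.4, with a control THS 312 bp away. Cold replicate 1 was also the lowest by percentile at chr1:10966397-10966651 (70.1, 83.7 and 80.4) and at chr2:10596929-10597331 (65.9, 71.0 and 78.0). At chr16:13123490-13123928 the scores were 10.97, 15.4 and 18.5, but the percentiles were close, at 83.7, 83.3 and 85.8.

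The remaining named cold-only members were chr19:13851652-13851883, with scores of 31.99, 29.6 and 18.5, and chr12:10349630-10349843, with scores of 17.9, 16.4 and 19.6. The first lay 604 bp from a control THS. The second was 214 bp wide in all, and its THSs in cold replicates 1, 2 and 3 were 209, 117 and 175 bp wide. All 3 are below the 217 bp of the narrowest THS in control replicate 2.

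The 128 control-only members were wider and ranked lower in score than the cold-only ones. They lay on all 19 chromosomes, with 14 on chromosome 16, 13 on chromosome 5 and 11 on chromosome 13, and 1 each on chromosomes 8 and 17. Their median width was 726.5 bp and the median of their lowest score percentile 25.9, the same percentile as in the rest (25.9). A cold-only member must hold a THS of cold replicates 2 and 3, where the median width of middle THSs was 180 and 166 bp. The part of this in the width contrast was not tested. Of the 128, 27 (21.1%) lay within 1000 bp of a cold THS, and the median distance to one was 4417 bp. Their median score percentile was 49.4, 47.8 and 44.4 in control replicates 1, 2 and 3, close to the middle of each list, whereas that of the cold-only members was 71.0, 79.7 and 78.0 in cold replicates 1, 2 and 3.

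The strongest control-only member was chr13:13728925-13729320, which scored 21.9, 27.0 and 20.1 in the 3 control libraries. Its THSs were 388, 381 and 381 bp wide and the nearest cold THS lay 12216 bp away. It was followed by chr2:9119405-9119765, with scores of 17.4, 7.42 and 9.40 and a cold THS 3397 bp away. The member chr17:8934602-8935031 had scores of 10.3, 15.2 and 7.10 and was the only control-only member of its chromosome. The percentiles of the first of these lay between 89.6 and 93.8 in the 3 control libraries, while those of the third ranged from 74.4 to 89.7.

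The next control-only members were chr7:11076669-11077012 (scores 11.6, 5.62 and 7.84) and chr1:12929859-12930421 (14.8, 8.05 and 5.67). The member chr10:9327097-9327526 had 5.30, 6.20 and 7.10. The other 6 named members were chr12:10986649-10987335, chr18:15726527-15727054, chr13:11581929-11582985, chr1:12971062-12971294, chr16:9759635-9760334 and chr16:10329421-10329666. Their scores lay between 4.01 and 8.70. Among them chr18:15726527-15727054 had a cold THS only 182 bp away, while for chr1:12971062-12971294 the nearest lay 28241 bp away.

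**Figure D5:**
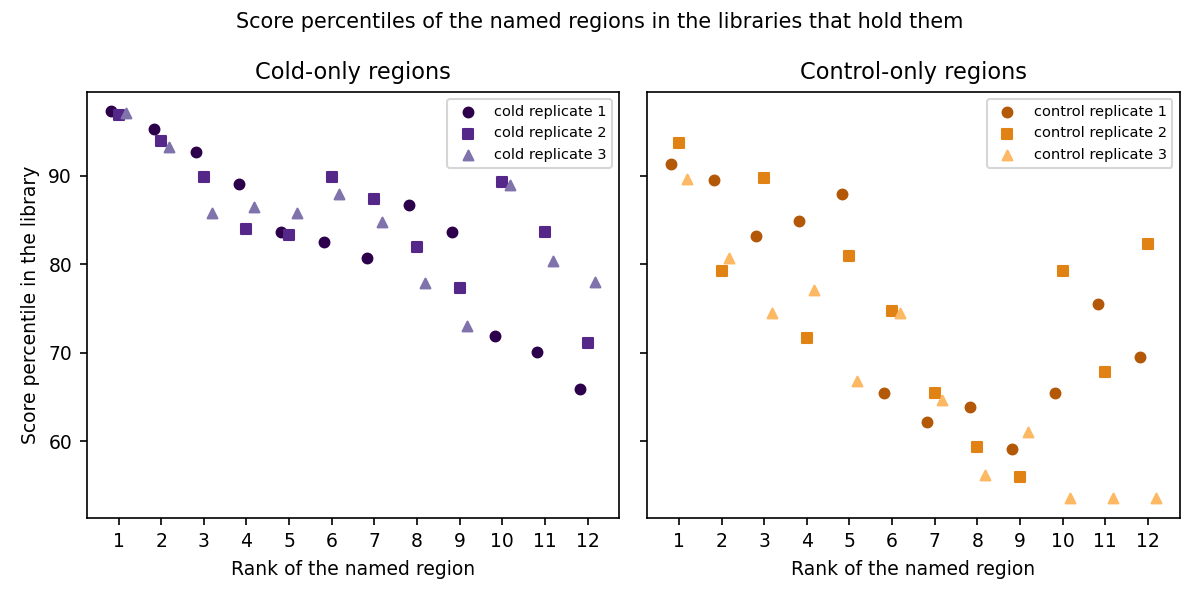
Score percentiles within each library (y axis) of the 12 named cold-only members in the 3 cold libraries (left) and of the 12 named control-only members in the 3 control libraries (right), by rank (x axis). The first cold-only member lies at percentiles of 96.9 to 97.3 and the first control-only member at 89.6 to 93.8, and cold replicate 1 is the lowest of the cold libraries at ranks 6, 7, 10, 11 and 12.

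The 636 members open in all 6 libraries were strong and wide. Their median width was 827.5 bp, which is in part built in because merging more lists widens a region, and the median of their lowest score percentile was 73.8 (73.6 in the rest). Their median score percentile was 89.1, 90.7 and 85.3 in the control libraries and 85.2, 81.9 and 78.4 in the cold libraries. The corresponding values in the rest were 89.0, 90.3, 84.4, 85.1, 81.9 and 79.0, so these sites ranked alike in the middle and elsewhere. Their share among members differed by chromosome, from 3.59% on chromosome 2 and 3.92% on chromosome 18 to 10.7% on chromosome 12 and 10.6% on chromosome 19. In the rest of chromosomes 2 and 18 the share was 8.16 and 8.77%.

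The member ranked first among them was chr11:10252359-10252932, with scores of 3374, 3053 and 3850 in control and 3057, 3050 and 2153 in cold. Close to it was chr8:11596354-11597343, in the sparse middle of chromosome 8, with 3137, 2784 and 3475 in control and 2896, 2830 and 2378 in cold. The widest of the 5 named was chr13:11911518-11914060, with 3136, 2824 and 3890 in control and 2968, 2578 and 1798 in cold. The lowest percentile of these 3 in any library was 99.8. The THSs of the first were 574 bp wide in each control library and 519, 447 and 444 bp in cold replicates 1, 2 and 3.

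The member chr9:9973409-9973919 had scores of 2685, 2292 and 3073 in control and 2604, 2122 and 1689 in cold, and its THSs were 498 to 511 bp wide in all 6 libraries. The member chr14:14590196-14590495 had 2380, 2075 and 2554 in control and 2234, 2430 and 1844 in cold, with widths of 292 to 300 bp. At these 2 sites, unlike the first, the libraries with narrow THSs gave nearly the same width as the others.

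Relative to the other THSs of their own library, middle THSs ranked somewhat higher in the cold libraries. The percentile is relative, and per Mb of middle the THSs in the highest 20% of scores numbered 9.53, 9.12 and 6.35 in control and 6.41, 7.31 and 6.29 in cold. The median score percentile of middle THSs was 49.5, 51.0 and 48.8 in control and 53.8, 54.1 and 53.3 in cold. The groups did not overlap (49.8 ± 1.10 and 53.7 ± 0.380, SD of 3 libraries each, exact permutation p = 0.1 and 0.125 after adjustment), and without cold replicates 2 and 3 the difference was 3.98 in place of 3.93. With the stricter score threshold it was 1.45 and the groups overlapped (exact permutation p = 0.4). The middle exceeded the rest by 4.54, 5.24 and 5.15 percentile points in cold replicates 1, 2 and 3, and by -0.658, 3.14 and -1.64 in control replicates 1, 2 and 3. Over the 6 libraries the difference was 2.63 ± 3.04 (exact sign-flip permutation p = 0.125, adjusted p = 0.167). It was 1.34 without cold replicates 2 and 3, and -0.159 with the stricter score threshold, so its direction was not stable.

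The ratio of middle to rest density was also compared by score. Among THSs in the lowest 20% of scores of a library, the ratio was 1.46, 1.10 and 1.31 in control and 1.01, 0.851 and 1.08 in cold. Among those in the highest 20% it was 1.37, 1.18 and 1.28 in control and 1.28, 1.21 and 1.20 in cold. The groups were apart by a narrow margin in the lowest 20%, where 1.10 was the lowest control and 1.08 the highest cold ratio, and they overlapped in the highest 20% and in each step between. THSs with a score of at least 100, a limit on a score that is not scaled between libraries, numbered 93 to 118 per library in the middle. Per Mb this was 1.16, 1.14 and 1.09 times as many as in the rest in the control libraries. In the cold libraries it was 1.2, 1.27 and 1.26 times, so here they were higher by a narrow margin, which was not tested. Of THSs with a score of at least 1000 the middle held 20 to 26, at 0.885 to 1.10 times the density of the rest. At that limit the groups overlapped.

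THS width was nearly the same in the middle as in the rest. The median width of middle THSs was 366, 381 and 339.5 bp in control and 334.5, 180.0 and 166 bp in cold, against 368, 380 and 345 bp and 337, 181 and 170.0 bp in the rest. The difference between middle and rest was -2.33 ± 2.27 bp (SD, n = 6, exact sign-flip permutation p = 0.09375, adjusted p = 0.167). The difference between the groups in the middle (362 ± 21.0 and 227 ± 93.5 bp, SD of 3 libraries each, exact permutation p = 0.1 and 0.125 after adjustment) was -27.7 bp without cold replicates 2 and 3. The share of middle THSs that belonged to regions of all 6 libraries differed from that of the rest by less than the spread of the libraries (-0.725 ± 3.01 percentage points, exact sign-flip permutation p = 0.625, adjusted p = 0.625).

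Members lay close together, with a few long empty stretches. The median distance between neighbouring merged regions was 4722 bp in the middle and 5517 bp in the rest. Stretches of over 100 kb without a THS in any library numbered 23 in the middle and 115 in the rest, or 2.70 and 3.37 per 10 Mb. The longest in the middle was chr16:12851364-13055895, with 204.5 kb, although chromosome 16 had the densest middle. It was the fourth longest of all chromosomes. The next were chr14:15391037-15569613 (178.6 kb) and chr7:8811012-8980894 (169.9 kb). Only uniquely mapped reads were kept by the authors, and whether these stretches are repeats, unresolved sequence or closed chromatin was not tested.

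In windows of 100 kb the middle held a median of 10 merged regions, and the rest held 8. Windows with 20 or more regions made up 6.13% of the 832 windows of the middle and 3.37% of the 3383 of the rest. The densest windows of the middle were chr4:12600001-12700000 and chr9:9800001-9900000, each with 28 regions, while the highest count in the rest was 30. In the first the libraries held 16, 16 and 13 THSs in control and 9, 12 and 10 in cold, so the groups did not overlap. In the second they held 16, 16 and 12 in control and 14, 19 and 17 in cold, so they did. A window on chromosome 7, chr7:11700001-11800000, had 27 regions, as did 3 others, and none of its regions was open in all 6 libraries. It held 14, 12 and 7 THSs in control and 5, 6 and 5 in cold.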

How the data were processed

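ATAC-seq was performed on 3 control and 3 cold leaf libraries, with 94312 THSs in all on 33 sequences. Reads were trimmed by the authors (Cutadapt) and aligned to the grape 12X genome (BWA). Uniquely mapped reads without duplicates then went into MACS2, run on each library with a q threshold of 0.05, no model, a shift of 0 and an extension of 200 bp. FastQC, cutadapt, BWA and MACS2 are also named in the submitters' processing notes, without versions. The deposited lists hold positions and a score. As the smallest deposited scores sit at the −log10 of 0.05, the score was taken as the −log10 of q, which the lists themselves do not state.

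Coordinates were counted from 1. THSs were merged, placed and measured in Python 3.11.15 (numpy 2.4.6, pandas 2.3.3), and bedtools 2.31.1 gave the same 44710 regions. Per-library measures used THSs whose own midpoint lay in the middle. Groups were compared by exact permutation (20 assignments, two-sided) and the middle with the rest by exact sign flips within libraries (64 assignments), with Benjamini-Hochberg adjustment within families of 5 and 4 measures, and 4 for differences between groups in middle minus rest. The count-based test of the study needs reads and was not run. By that test, on read counts and not limited to the middle, the study reported more positively than negatively enriched THSs at 2 h of cold. That balance is opposite to the counts of cold-only and control-only members here, which rest on presence in the lists. Named regions were the 5 members open in all 6 libraries and the 12 cold-only and 12 control-only members with the highest value of their lowest score percentile. Also named were the 3 longest empty stretches and the 3 densest windows of the middle (ties by chromosome number), and the chromosomes with extreme values. The members and rules were chosen with earlier results of these data known. Counting was checked on simulated lists, and the tests and the adjustment on short series of numbers with known results. No genome or gene annotation was used, so genes, motifs and sequences were not analysed here. Plots were drawn with matplotlib 3.10.9.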

Additional observations from a re-analysis of the deposited data

How the results depend on the processing

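Of 201 alternatives 4 turned a direction and 23 moved a count by over 1.5 times. The others say little about stability, because exact tests of 3 libraries against 3 cannot pass 0.05 and with 5 libraries the smallest sign-flip p is 0.0625, so few calls could change while values moved. After seeing the data, 32 of the 201 were added. The difference in density between middle and rest (6.55 THSs per Mb) kept its direction throughout, at 3.73 when THSs under the median score of all lists were dropped (the stricter threshold), 5.44 when all lists were cut to the shortest, 6.48 with chromosomes weighted equally and 7.96 without chromosomes 8 and 19. The difference between groups in middle density (-12.1 THSs per Mb) was -3.39 under the stricter threshold and -3.89 in lists of equal length, and that in covered length (-10.8 kb per Mb) was -2.42 with windows of 200 bp.

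The score percentile of the middle against the rest turned to -0.159 with the stricter threshold. With the middle taken as 45 to 55%, the difference in width turned to 2.58 bp and that in the share of THSs in regions of all 6 libraries to 0.512 percentage points, and the latter ranged from -1.46 to 0.00856 when 1 library was left out (0.00856 without control replicate 1). The cause was not tested.

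Cold-only members (20) moved to 13 when 50% of a region had to be covered, 7 with the middle as 45 to 55%, 2 with 1 common width and gap limit, 259 with presence in at least 2 of 3 libraries and 671 without cold replicates 2 and 3, when cold replicate 1 stood alone. Control-only members (128) numbered 44 under the stricter threshold, 77 in lists of equal length, 71 with 45 to 55%, 739 in at least 2 of 3 libraries and 251 without cold replicates 2 and 3. With presence in at least 2 of 3 libraries, the cold-only share of the members was 2.85%, below the 3.51% of all merged regions. By the same rule the control-only share was 8.14%, against 6.57% of all merged regions. Members open in every library (636) moved to 218 with 50% covered, 347 with 45 to 55%, 395 with the common limit and 980 without the 2 cold libraries. When 1 library was left out, cold-only members numbered 26 to 218 and control-only members 156 to 442. A narrower middle, a weaker rule or fewer libraries changes these counts by construction.

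Libraries with the same replicate number did not deviate together (correlations over the members of -0.00327, -0.000631 and 0.00898), so the numbers were not used as pairs. With a replicate block the difference in density was -12.1 THSs per Mb (exact sign-flip permutation p = 0.25, the smallest for 3 pairs). Chromosome lengths of a reference genome were planned as an alternative and were not run, because no genome was used here. THS calling sets what can be seen: a weak site absent from a list may lie under the threshold of that library.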
